A study of Homo sapiens with 4 samples.

Results

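The genes of fatty acid synthesis, storage and oxidation were compared between high glucose and normal glucose in UM1 cells, an established line from a human squamous cell carcinoma of the tongue. The group was given as a list of 39 genes, and 38 of them had at least 1 probe set annotated to that gene alone, out of 18132 genes measured. ACSL3 was not analysed here. The 2 high glucose samples came from UM1 cells grown for 7 days in medium with 16.7 mM glucose, and the 2 normal glucose samples, which the labels call low glucose, from UM1 cells grown for the same time in 5.6 mM glucose. Both groups are the same untransfected line, so a single tumour line stands for the tissue. Total RNA of each sample was hybridised to its own Affymetrix array. The authors deposited a log2 value for each probe set, corrected for background and normalised between arrays by RMA. Each gene is read here by its brightest probe set, and a difference is the mean log2 value in high glucose minus that in normal glucose. A gene is called higher or lower at an adjusted p under 0.05 from limma, with Benjamini-Hochberg adjustment over all genes.

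Fatty acids are built in the cytosol. ATP-citrate lyase cuts exported citrate to acetyl-CoA, acetyl-CoA carboxylase turns this into malonyl-CoA, and fatty acid synthase joins the units to palmitate. Elongases and desaturases of the endoplasmic reticulum then lengthen the chains and add double bonds, and acyl-CoA synthetases activate fatty acids for use. Activated chains are either esterified to glycerol and stored in lipid droplets, which perilipins coat, or carried into mitochondria by the carnitine shuttle for beta-oxidation. The peroxisome proliferator-activated receptors (PPARs) are nuclear receptors that bind fatty acids and control genes of both branches. Squamous epithelia depend on very long chain fatty acids for the lipids of their barrier.

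In the series as a whole, the array medians lay between 5.01 and 5.07 on the log2 scale and the 25th percentiles, taken here as a floor, between 3.26 and 3.32. All 7 measured squamous markers of 10 listed were above the floor in both groups, and the sum of their linear levels was 43932 to 46104 in high glucose, against 6810 to 6886 in normal glucose, although EPCAM was lower in high glucose (7.75 and 8.22, against 11.03 and 11.28 in normal glucose). The 6 adipocyte markers summed to 94.7 to 99.6 in high glucose and 88.8 to 94.9 in normal glucose, and the defining gene ADIPOQ lay between 4.30 and 4.46 on every array. Of 8 fibroblast markers, 4 in high glucose and 3 in normal glucose were above the floor on both arrays. The 8 summed to 1147 to 1168 in high glucose and 104 to 121 in normal glucose. FAP had 9.74 and 9.80 in high glucose, against 3.95 and 3.65 in normal glucose. COL1A1 had 7.79 and 7.76 in high glucose, against 5.33 and 5.12 in normal glucose. PDGFRA, LUM and THY1 lay at or under 3.19 on every array. The 5 hepatocyte markers summed to 772 to 793 in high glucose and 1191 to 1250 in normal glucose, with ALB at or under 2.77. SERPINA1, the brightest of them, had 9.43 and 9.37 in high glucose, against 10.18 and 10.11 in normal glucose, and was called lower. CPS1 was called higher, at 1.62-fold. The 4 measured of 5 leukocyte markers summed to 154 to 156 and 135 to 149, with PTPRC at or under 2.83. CD68 had 6.85 and 6.82 in high glucose and 6.62 and 6.69 in normal glucose and was not called. For beta-actin, a control of RNA quality, the probe set at the 3' end read 0.35 and 0.42 above that at the 5' end in high glucose, against 0.71 and 0.74 in normal glucose (log2). The beta-actin gene ACTB was itself called higher in high glucose (log2 difference 1.52, adjusted p = 8.7e-05 from limma, mean level 13.4). How far this bears on the control was not tested. For GAPDH, the other such control, the groups lay closer, with 0.08 and 0.12 in high glucose and 0.24 and 0.13 in normal glucose. The part of these differences in the results on fatty acid genes was not tested.

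Of the 38 measured genes, 8 were higher, 11 were lower and 19 were not called in high glucose. Over all genes tested, 15.5% were called higher and 22.2% lower, and the shares among the fatty acid genes, 21.1% higher and 28.9% lower, lay near that background. The median log2 difference of the members was 0.03, against -0.03 over all genes, and the median size of the difference was 0.29, against 0.23. Both high glucose arrays lay above both normal glucose arrays for 14 members, as for 27.5% of all genes, and below them for 15 members, as for 37.3% of all genes, so the groups did not overlap for 29 members and for 64.8% of all genes. Called differences of more than 2-fold were found for 10 of the 38 members, 4 higher and 6 lower. The share was smaller over all genes, at 2150 of 18132 (11.9%), and the difference between the shares was not tested. The members over 2-fold were SCD5, HADH, PLIN3 and ACSL4 among the higher genes, and PPARG, CPT1A, PPARA, ELOVL4, ACSL1 and ELOVL7 among the lower ones. The shares over all genes include genes at or under the floor, where no member lay on both arrays of either group. Among genes at or above the median level, 2414 were called higher and 3972 lower. Of the members at that level, 9 were higher and 10 lower. In whole cultures, less RNA per cell and fewer cells that carry it cannot be told apart. At the thresholds of the study's methods, a fold over 1.5 or under 0.67 and an unadjusted p under 0.05, 5 members were higher and 9 lower, where 10.6% and 13.4% of all genes were. An exact permutation of the 4 arrays cannot give any gene a two-sided p under 0.333, and a call therefore uses the spread that limma estimates over the genes. The p-values measure the spread between arrays that the labels call biological replicates. That they came from separate cultures is not given in the sources used here.

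**Figure D1:**
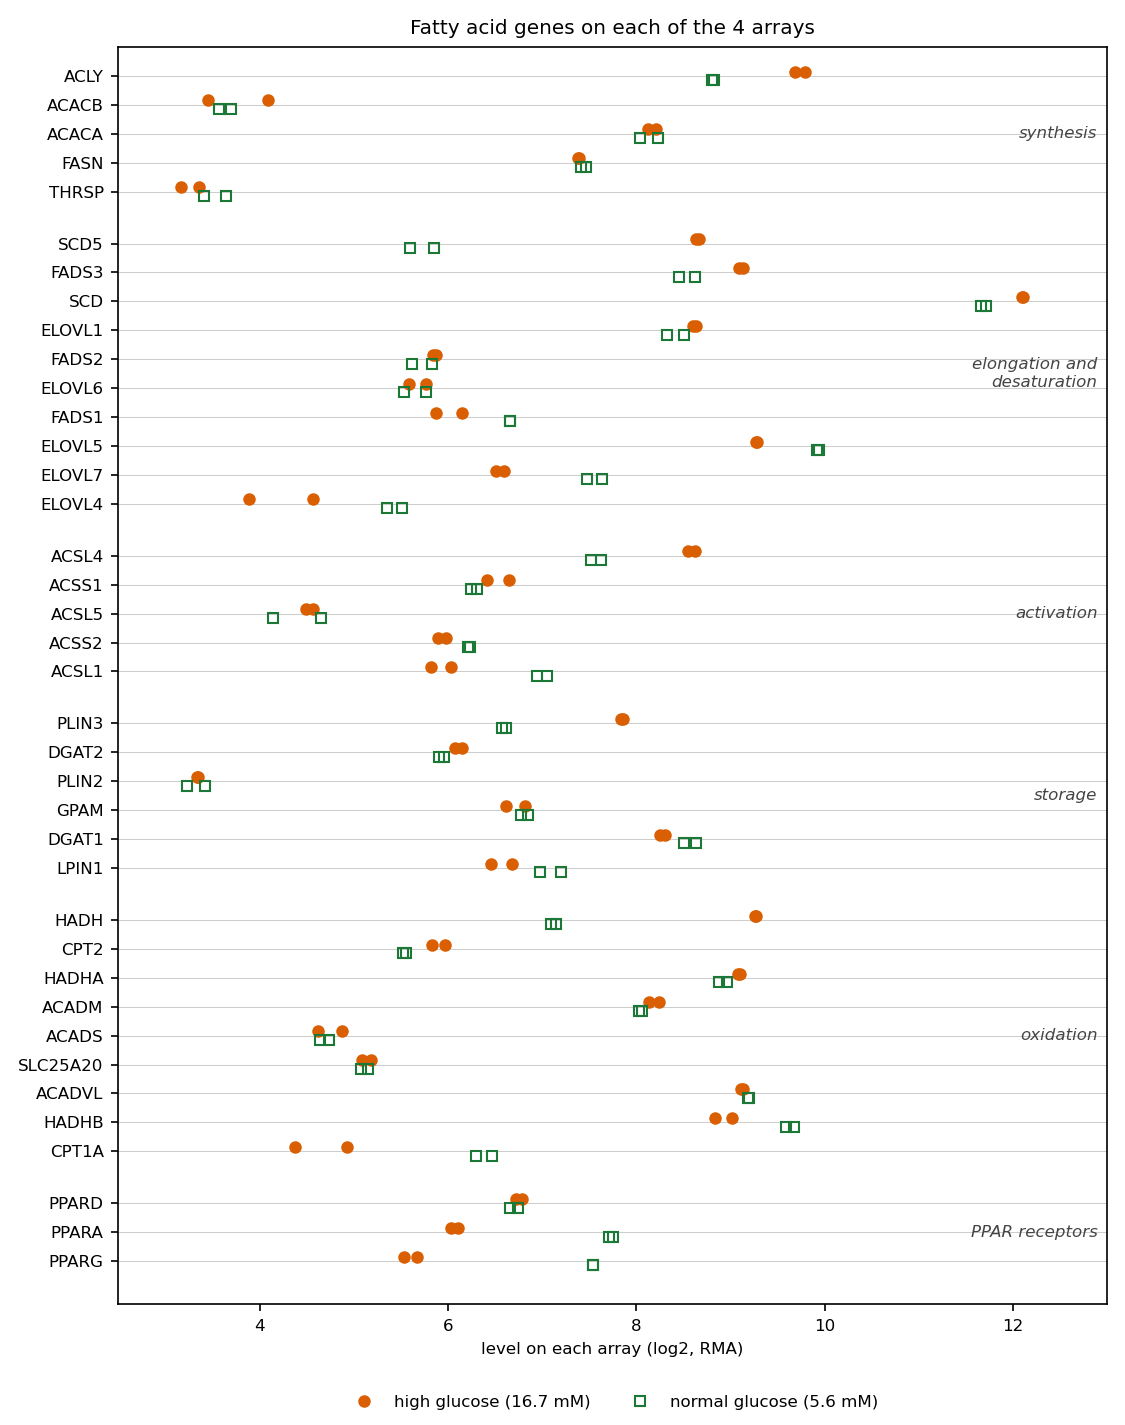
Level of each of the 38 measured genes on each array (log2 RMA value, horizontal axis), grouped by role and ordered by difference within a role. Filled circles are the 2 high glucose arrays and open squares the 2 normal glucose arrays. SCD5 at 8.66 and 8.63 in high glucose, against 5.60 and 5.85 in normal glucose, shows the widest gap.

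**Figure D2:**
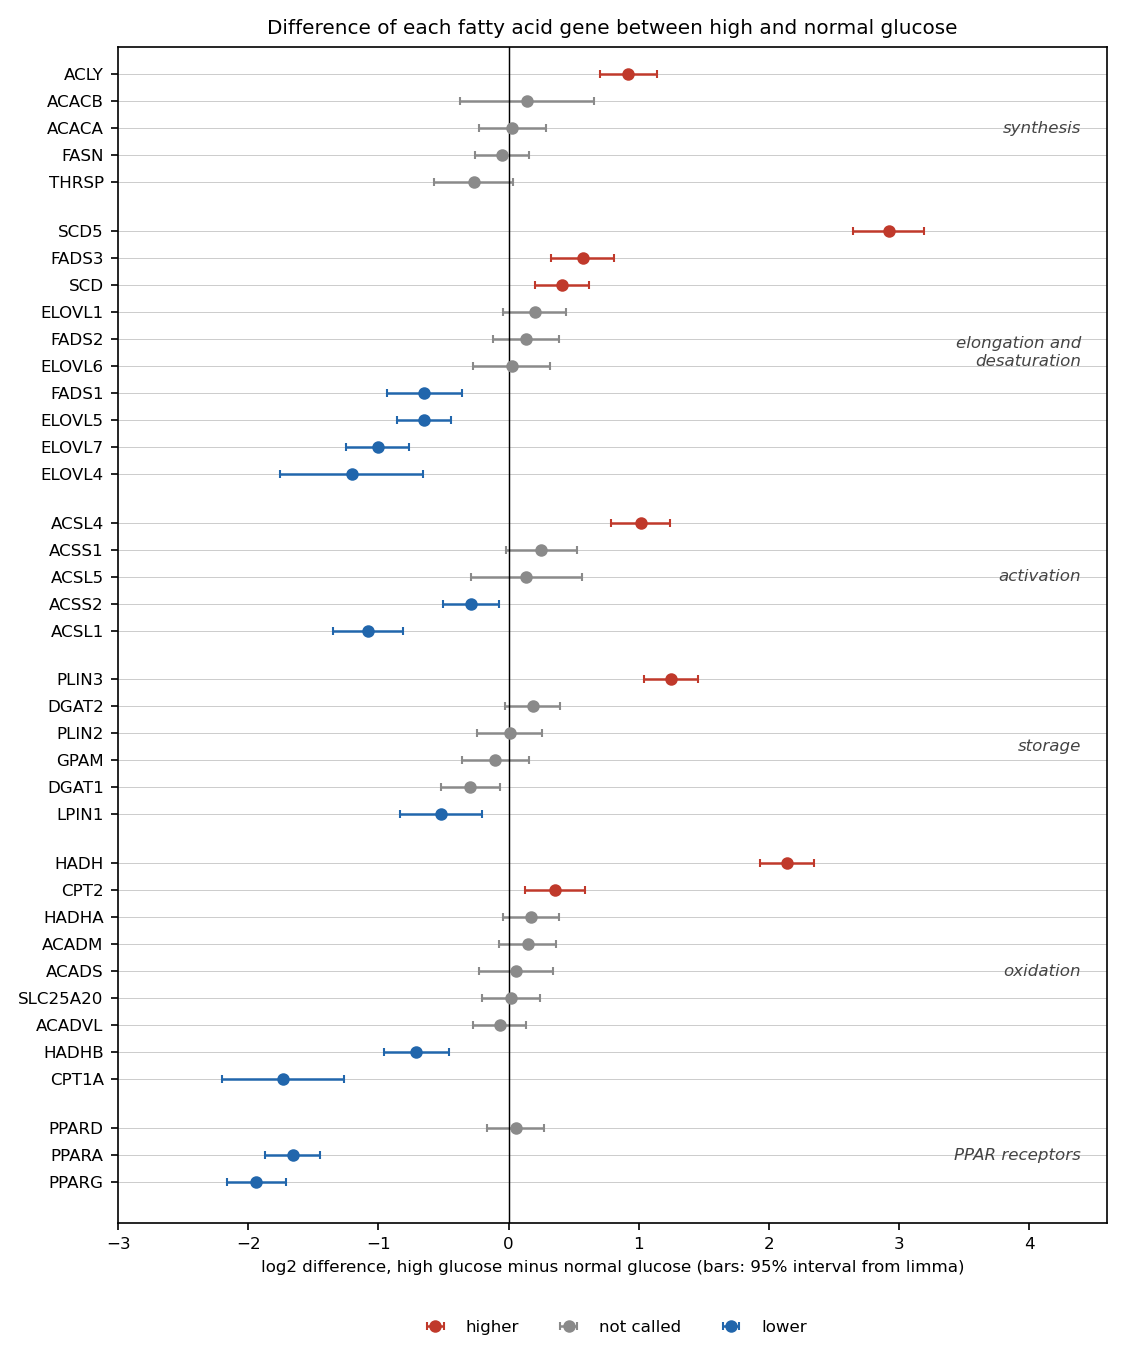
Log2 difference of each gene, high glucose minus normal glucose, with its 95% interval from limma. Red genes were called higher, blue genes lower and grey genes not called. Every role except the PPAR receptors and synthesis holds genes called in both directions.

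Among the 5 genes of fatty acid synthesis proper, the entry enzyme moved and the later steps were not called. ACLY, the ATP-citrate lyase, had 9.68 and 9.79 in high glucose, against 8.81 and 8.83 in normal glucose. The rise was 1.89-fold (0.92 on the log2 scale, SE 0.088, adjusted p = 0.000593 from limma, n = 2 in each group). Both of its probe sets were called higher. ACACA, the cytosolic acetyl-CoA carboxylase that sets the rate of the pathway, had 8.12 and 8.21 in high glucose and 8.04 and 8.23 in normal glucose, so the groups overlapped. FASN, the fatty acid synthase, had 7.40 and 7.38 in high glucose and 7.41 and 7.46 in normal glucose, a log2 difference of -0.05 with a 95% interval from -0.26 to 0.16. This interval leaves out a rise or a fall as large as that of ACLY. ACACB, the carboxylase of the outer mitochondrial membrane whose product inhibits the carnitine shuttle, had 4.09 and 3.45 in high glucose, against 3.69 and 3.57 in normal glucose. THRSP, a regulator of lipogenesis, had 3.35 and 3.16 in high glucose and 3.41 and 3.65 in normal glucose, close to the floor.

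The genes that lengthen and desaturate fatty acids moved in both directions, with 3 of 10 higher and 4 lower in high glucose. Over all genes, 15.5% were called higher and 22.2% lower. SCD5, a stearoyl-CoA desaturase that makes monounsaturated fatty acids, had 8.66 and 8.63 in high glucose, against 5.60 and 5.85 in normal glucose. It was 7.57-fold higher (log2 difference 2.92, SE 0.111, adjusted p = 2.11e-05 from limma), the widest difference of any member by the brightest probe set, and its size exceeded that of 98.5% of all genes. SCD, the main human stearoyl-CoA desaturase, had 12.1 on both high glucose arrays and 11.7 on both normal glucose arrays. Its brightest probe set was 1.33-fold higher (adjusted p = 0.0113 from limma), and the other 3 were 1.68-fold to 1.78-fold higher. By the brightest probe sets, the change of SCD5 exceeded that of SCD by 2.51 on the log2 scale (exact permutation p = 0.333, the smallest possible), and the 95% intervals of the brightest probe sets, 2.65 to 3.20 and 0.20 to 0.62, did not overlap. By the median over probe sets this gap was gone, with log2 differences of 0.77 for SCD5 and 0.79 for SCD, both called. The call of SCD ended without normal glucose replicate 1 (adjusted p = 0.0678), normal glucose replicate 2 (0.0519), high glucose replicate 1 (0.0664) or high glucose replicate 2 (0.0609). FADS3, a relative of the front-end desaturases, had 9.13 and 9.09 in high glucose, against 8.63 and 8.46 in normal glucose, a 1.48-fold rise (adjusted p = 0.00557, and 0.0521 without high glucose replicate 1).

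Promoter sequences of the desaturase pair are shown because both genes rose in high glucose. They are the RefSeq windows of 250 bases before to 50 bases after the start, build GRCh38.p14, read on the strand of the gene, with CCAAT boxes (CCAAT or ATTGG) and GC boxes (GGGCGG or CCGCCC) in capitals. SCD lies at chr10:100346983-100347282 on the plus strand and SCD5 at chr4:82798747-82799046 on the minus strand.
SCD: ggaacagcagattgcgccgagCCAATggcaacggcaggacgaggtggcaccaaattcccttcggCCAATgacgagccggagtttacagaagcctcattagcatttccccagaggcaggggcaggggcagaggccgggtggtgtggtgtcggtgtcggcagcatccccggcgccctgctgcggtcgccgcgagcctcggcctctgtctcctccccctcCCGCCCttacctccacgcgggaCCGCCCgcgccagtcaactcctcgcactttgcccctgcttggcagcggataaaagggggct
SCD5: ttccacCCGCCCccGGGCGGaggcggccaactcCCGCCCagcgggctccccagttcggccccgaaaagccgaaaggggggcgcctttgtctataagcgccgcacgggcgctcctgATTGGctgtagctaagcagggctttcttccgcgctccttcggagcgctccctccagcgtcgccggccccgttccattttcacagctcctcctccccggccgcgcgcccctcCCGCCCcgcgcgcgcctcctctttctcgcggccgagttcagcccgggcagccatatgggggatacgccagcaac
The SCD window held 2 CCAAT boxes and 2 GC boxes, and the SCD5 window 1 CCAAT box and 4 GC boxes. Over all 35116 windows of this length, 34.6% held a CCAAT box and 45% a GC box. Neither window held the core of the sterol regulatory element (TCACNCCAC on either strand), which 1.13% of all windows held.

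The lower genes of this step were elongases and the delta-5 desaturase. ELOVL4, which makes the very long chains of skin and retina lipids, had 4.57 and 3.89 in high glucose, against 5.52 and 5.35 in normal glucose. It was lower by a factor of 2.31 (log2 difference -1.21, SE 0.221, adjusted p = 0.00748 from limma). Without normal glucose replicate 1 or 2 its adjusted p was 0.0856 and 0.064. ELOVL7, an elongase of saturated long chains, had 6.51 and 6.60 in high glucose and 7.48 and 7.64 in normal glucose, a fall by a factor of 2.01. ELOVL5, which elongates polyunsaturated chains, had 9.28 on both high glucose arrays, against 9.92 and 9.94 in normal glucose, a fall by a factor of 1.57 (adjusted p = 0.00177 from limma). FADS1, the delta-5 desaturase, had 5.87 and 6.15 in high glucose and the same 6.66 on both normal glucose arrays, a fall by a factor of 1.57 (adjusted p = 0.00669). Its adjusted p was 0.0613 and 0.0616 without normal glucose replicate 1 or 2, and the median over its 3 probe sets, at -0.09, was not called (0.635). FADS1, FADS2 and FADS3 are neighbours on chromosome 11, and FADS2, the delta-6 desaturase between the lower FADS1 and the higher FADS3, was not called, with 5.87 and 5.84 in high glucose and 5.62 and 5.83 in normal glucose. ELOVL6, which lengthens palmitate to stearate, had 5.59 and 5.77 in high glucose and 5.54 and 5.77 in normal glucose. Its direction depended on the probe set, since the median over its 3 probe sets was 0.34 lower in high glucose on the log2 scale (adjusted p = 0.0235). ELOVL1, an elongase of saturated very long chains, had 8.63 and 8.60 in high glucose and 8.50 and 8.33 in normal glucose and was not called (adjusted p = 0.173).

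Activation of fatty acids was split between the long chain acyl-CoA synthetases. ACSL4, which prefers arachidonic acid and other polyunsaturated chains, had 8.55 and 8.62 in high glucose, against 7.52 and 7.63 in normal glucose. It was 2.02-fold higher (log2 difference 1.01, SE 0.0915, adjusted p = 0.000477 from limma). The dimmer probe sets of ACSL4 gave log2 differences of 0.58 and 0.37, and the median over all 3 was not called (adjusted p = 0.11). ACSL1, the form typical of liver and fat, had 5.82 and 6.03 in high glucose, against 6.95 and 7.06 in normal glucose. It was lower by a factor of 2.11 (log2 difference -1.08, SE 0.108, adjusted p = 0.000702 from limma), with 2 of 2 probe sets called lower. The groups of arrays stood apart for both genes, in opposite directions, as they did in either direction for 64.8% of all genes. ACSL5, a synthetase of mitochondria and the endoplasmic reticulum, had 4.50 and 4.57 in high glucose, within the 4.14 and 4.65 of normal glucose. Of the acetyl-CoA synthetases, which activate acetate, the cytosolic ACSS2 had 5.98 and 5.89 in high glucose, against 6.24 and 6.21 in normal glucose, lower by a factor of 1.22 (adjusted p = 0.0445). That call ended without normal glucose replicate 1 (adjusted p = 0.152), normal glucose replicate 2 (0.131), high glucose replicate 1 (0.0956) or high glucose replicate 2 (0.17). It also ended with the replicate number as a block (0.0697). Mitochondrial ACSS1 had 6.65 and 6.41 in high glucose and 6.31 and 6.24 in normal glucose and was not called (adjusted p = 0.134).

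Among the storage genes, PLIN3, a perilipin that coats small and new lipid droplets, stood apart. It had 7.84 and 7.86 in high glucose, against 6.62 and 6.58 in normal glucose, a 2.38-fold rise (log2 difference 1.25, SE 0.0833, adjusted p = 0.000149 from limma). Its 1 probe set ends in _x_at, a class that can bind transcripts of other genes. PLIN2, the perilipin that most cells carry on their droplets, lay near the floor in both groups, at 3.34 and 3.33 in high glucose and 3.43 and 3.23 in normal glucose. LPIN1, a phosphatidate phosphatase of the glycerolipid route that also acts with PPAR alpha in the nucleus, had 6.45 and 6.68 in high glucose, against 7.20 and 6.98 in normal glucose. It was lower by a factor of 1.43 (adjusted p = 0.0217), a call that ended without normal glucose replicate 1 (0.131), normal glucose replicate 2 (0.0524), high glucose replicate 1 (0.132) or high glucose replicate 2 (0.0502), with the replicate block (0.0723) and with the median over probe sets (0.124). DGAT1 and DGAT2 catalyse the last step to triglyceride by unrelated enzymes. DGAT1 had 8.31 and 8.25 in high glucose, against 8.64 and 8.51 in normal glucose, and missed the threshold (log2 difference -0.29, adjusted p = 0.0522). It passed with median centring (0.0256), with limma-trend (0.00811), with a floor at the 25th percentile (0.0364) and without dim genes (0.0124). It did not pass under the other alternatives, its dimmer probe set gave 0.12 in the opposite direction, and the median over both was -0.09 (adjusted p = 0.482). DGAT2 had 6.08 and 6.15 in high glucose, against 5.91 and 5.96 in normal glucose (adjusted p = 0.16), and its dimmer probe set was called higher at 1.34-fold. GPAM, the mitochondrial acyltransferase of the first step, had 6.61 and 6.82 in high glucose and 6.78 and 6.86 in normal glucose, with overlap.

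The 9 genes of mitochondrial oxidation held the second largest rise and the second largest fall of all members, as read by the brightest probe sets. HADH, the dehydrogenase of short and medium chain 3-hydroxyacyl-CoA, had 9.27 and 9.26 in high glucose, against 7.10 and 7.15 in normal glucose. It was 4.42-fold higher (log2 difference 2.14, SE 0.0839, adjusted p = 2.29e-05 from limma), and its second probe set gave a log2 difference of 1.98. CPT1A, the carnitine palmitoyltransferase of the outer membrane that controls entry into the mitochondrion, had 4.93 and 4.38 in high glucose, against 6.30 and 6.47 in normal glucose. It was lower by a factor of 3.33 (log2 difference -1.73, SE 0.189, adjusted p = 0.000968 from limma). The other probe set of CPT1A, at 3.35 in high glucose and 3.52 in normal glucose, lay near the floor and was not called, and the median over both was -0.95. CPT2, the partner of CPT1A on the inner membrane, had 5.97 and 5.83 in high glucose, against 5.56 and 5.53 in normal glucose, a 1.28-fold difference the other way (adjusted p = 0.0281). This call ended without normal glucose replicate 1 (0.106), normal glucose replicate 2 (0.128), high glucose replicate 1 (0.132) or high glucose replicate 2 (0.0553), and after a further quantile normalization (0.051). SLC25A20, the carrier of acylcarnitines between these enzymes, had 5.09 and 5.18 in high glucose and 5.08 and 5.15 in normal glucose.

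The acyl-CoA dehydrogenases, which take the first step of each cycle of oxidation, were not called. ACADVL, for very long chains, had 9.13 and 9.12 in high glucose and 9.20 and 9.19 in normal glucose. ACADM, for medium chains, had 8.14 and 8.24 in high glucose and 8.06 and 8.03 in normal glucose, and its 7 probe sets ranged from -0.05 to 0.18 on the log2 scale. ACADS, for short chains, had 4.62 and 4.88 in high glucose and 4.65 and 4.74 in normal glucose. The 95% intervals of these 3 differences together spanned -0.27 to 0.37, so changes as large as those of CPT1A or HADH lay outside them.

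HADHA and HADHB encode the alpha and beta subunits of 1 enzyme, the mitochondrial trifunctional protein, and by the brightest probe set only the beta subunit was called. HADHB had 8.83 and 9.02 in high glucose, against 9.59 and 9.67 in normal glucose, lower by a factor of 1.63 (log2 difference -0.71, SE 0.101, adjusted p = 0.0028 from limma). All 5 of its probe sets were called lower, with log2 differences between -0.83 and -0.70. HADHA had 9.08 and 9.10 in high glucose, against 8.96 and 8.87 in normal glucose, a log2 difference of 0.17 (95% interval -0.04 to 0.38, adjusted p = 0.189). Of its 4 probe sets, 1 was called higher at 1.36-fold, and the median over them was called at 0.35 (adjusted p = 0.0184). The difference between the subunits moved by 0.88 on the log2 scale, the 2 high glucose arrays standing apart from the 2 normal glucose arrays (exact permutation p = 0.333, the smallest possible). The 95% interval of HADHB, -0.96 to -0.46, did not overlap that of HADHA.

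The genes of both subunits lie head to head on chromosome 2, and their promoter windows are shown because genes with shared upstream sequence differed in response. In the RefSeq windows of GRCh38.p14, HADHA starts at position 26244632 on the minus strand (window chr2:26244583-26244882) and HADHB at 26244939 on the plus strand (window chr2:26244689-26244988), 307 bases apart. The windows share 194 bases, given in capitals, each window being read on the strand of its gene. The window of HADH, at chr4:107989639-107989938 on the plus strand, is given beside them as that of the member of this route that rose most, with its CCAAT box and 2 GC boxes in capitals.
HADHA: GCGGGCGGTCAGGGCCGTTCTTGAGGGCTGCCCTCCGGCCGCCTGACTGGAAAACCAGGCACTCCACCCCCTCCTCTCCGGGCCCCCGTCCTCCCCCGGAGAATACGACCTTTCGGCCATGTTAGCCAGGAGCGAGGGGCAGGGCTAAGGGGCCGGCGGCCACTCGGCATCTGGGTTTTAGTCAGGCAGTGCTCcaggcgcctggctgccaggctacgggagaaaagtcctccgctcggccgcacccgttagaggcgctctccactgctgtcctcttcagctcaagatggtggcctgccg
HADHB: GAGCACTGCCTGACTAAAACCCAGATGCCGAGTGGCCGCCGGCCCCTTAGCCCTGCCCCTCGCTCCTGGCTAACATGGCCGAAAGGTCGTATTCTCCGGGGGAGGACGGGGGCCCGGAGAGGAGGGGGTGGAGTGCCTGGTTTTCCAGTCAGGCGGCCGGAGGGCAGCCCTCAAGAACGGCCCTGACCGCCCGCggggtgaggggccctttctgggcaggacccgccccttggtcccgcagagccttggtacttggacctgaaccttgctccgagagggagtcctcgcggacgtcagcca
HADH: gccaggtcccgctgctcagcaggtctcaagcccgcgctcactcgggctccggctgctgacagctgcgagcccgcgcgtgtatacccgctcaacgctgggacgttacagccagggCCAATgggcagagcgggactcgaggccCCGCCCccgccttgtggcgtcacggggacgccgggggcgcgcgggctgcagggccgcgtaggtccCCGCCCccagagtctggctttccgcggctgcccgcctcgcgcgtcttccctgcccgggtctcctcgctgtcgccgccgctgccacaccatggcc
A GC box was found in the windows of all 3 genes, and a CCAAT box in that of HADH. No window of these genes held an exact match to the DR1 repeat that PPARs bind with their partner RXR, which 8 of all 35116 windows held. With so rare an exact match, its absence cannot tell whether PPARs bind near these genes. Inexact repeats and sequence outside the windows were not searched.

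Of the 3 PPAR genes, 2 fell and 1 was not called, where 22.2% of all genes were called lower. PPARG, the receptor that drives fat cell formation and is also active in differentiating epithelia, had 5.53 and 5.67 in high glucose and 7.54 on both normal glucose arrays. It was lower by a factor of 3.83 (log2 difference -1.94, SE 0.0919, adjusted p = 4.2e-05 from limma), and its second probe set gave -1.86. PPARA, the receptor that induces fatty acid oxidation in liver, had 6.11 and 6.03 in high glucose, against 7.75 and 7.71 in normal glucose. It was lower by a factor of 3.16 (log2 difference -1.66, SE 0.0857, adjusted p = 5.83e-05 from limma). Of the 9 probe sets of PPARA, 5 were called lower. The brightest pair gave -1.66 and -1.54, the other 3 called ones -0.39 to -0.51, and the dimmest pair, at 3.17 to 3.39 in the group means, 0.07 and 0.16. The median over all 9 was called at -0.41 (adjusted p = 0.0184). PPARD, the receptor found in most tissues, had 6.79 and 6.72 in high glucose and 6.66 and 6.75 in normal glucose (log2 difference 0.05, 95% interval -0.17 to 0.27). By the brightest probe sets, the intervals of PPARA and PPARG, which end at -1.45 and -1.71, lay wholly below that of PPARD.

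**Figure D3:**
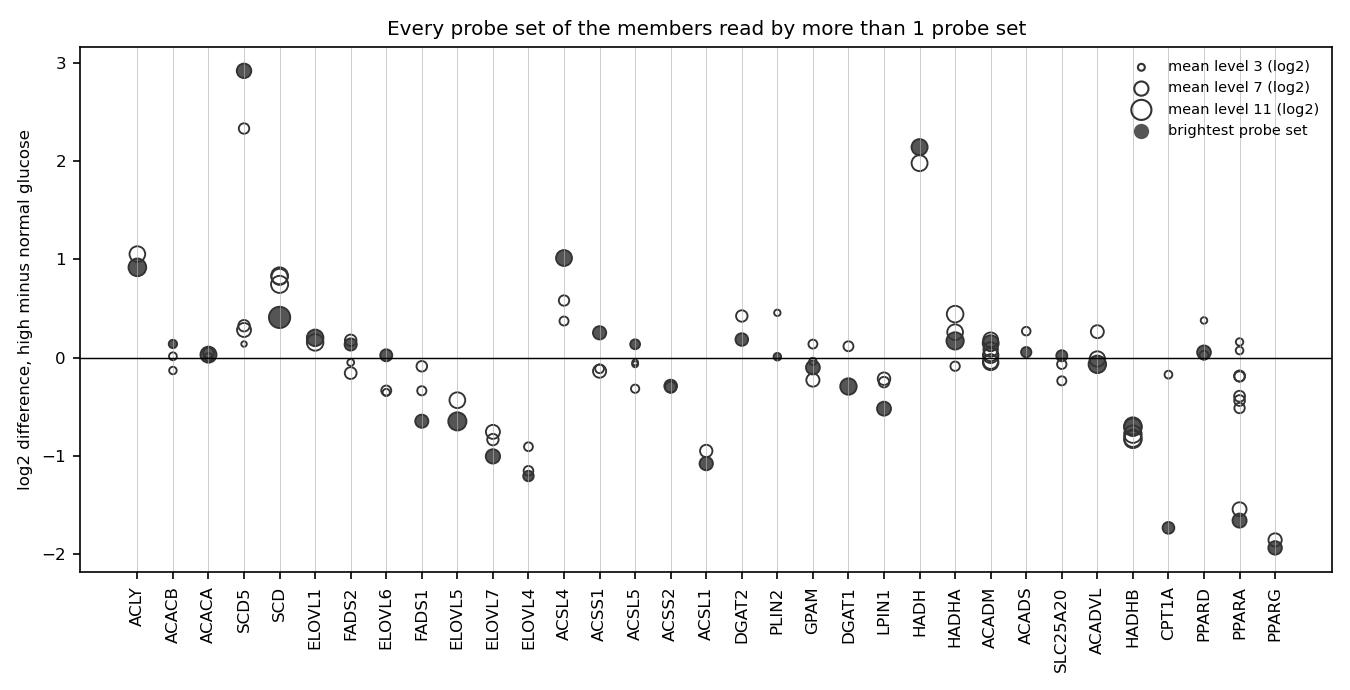
Log2 difference, high glucose minus normal glucose, of every probe set of the 33 genes that had more than 1, with marker area growing with the mean level over the 4 arrays and the brightest probe set filled. The 5 probe sets of HADHB lie together near -0.7 to -0.8, whereas those of SCD5 spread from 0.14 to 2.92 and those of PPARA from -1.66 to 0.16.

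The 38 genes were read by 111 probe sets in all, of which 18 were called higher and 27 lower when each was tested (limma, adjusted over 44988 probe sets, of which 15.3% were called higher and 20.7% lower). No member had probe sets called in opposite directions. For 21 of the 33 genes with several probe sets, all differences had the same sign. SCD5 was the most divided. Its brightest probe set and another one, at 5.98 in high glucose and 3.64 in normal glucose, gave 7.57-fold and 5.04-fold, and the other 3 gave 1.10-fold to 1.25-fold and were not called. The annotation names the gene and not the transcript that a probe set reads, so transcript forms were not told apart. Another probe set was called for 5 genes that were not called in the fit over genes, namely HADHA, DGAT2, PLIN2, PPARD and ELOVL6. Those of PLIN2 and PPARD were at or under the floor on every array. ACSS2 was called lower in the fit over genes. When each probe set was tested, its brightest one missed the threshold (adjusted p = 0.0545 from limma) and its other one was called lower (0.0424).

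Further genes of lipid metabolism came from 8 lists that hold no member. Of 127 measured of 143 listed, 30 were higher and 24 lower, where 15.5% and 22.2% of all genes were, with a median log2 difference of -0.02. In the list for SREBP control, the membrane-bound factors that induce lipid synthesis and their regulators, 4 of 9 were higher and 2 lower, while the median of the list was -0.15. SREBF2, which favours cholesterol genes, was 1.68-fold higher (8.71 and 8.57 in high glucose, against 7.83 and 7.96 in normal glucose, adjusted p = 0.00221 from limma). SREBF1 was 1.29-fold higher (8.11 and 7.97 in high glucose, against 7.64 and 7.71 in normal glucose, adjusted p = 0.0271 from limma). Whether the call of SREBF1 held with an array left out is not reported here. INSIG1 and INSIG2, which hold SREBP in the endoplasmic reticulum, were 1.52-fold and 1.36-fold higher. Left without normal glucose replicate 1, neither was called (adjusted p = 0.0713 for INSIG1 and 0.0915 for INSIG2). That of INSIG1 also ended without normal glucose replicate 2 (0.0697), and that of INSIG2 without high glucose replicate 1 (0.107) or 2 (0.102).

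In the list of further synthesis and elongation genes, 3 of 19 were higher and 4 lower, where 15.5% and 22.2% of all genes were. MID1IP1, the relative of THRSP that activates acetyl-CoA carboxylase, was lower by a factor of 2.53 (6.66 and 6.83 in high glucose, against 8.05 and 8.12 in normal glucose, adjusted p = 0.000211 from limma). ME1, a cytosolic source of NADPH, was lower by a factor of 2.01. CYB5R3, the reductase that supplies electrons to desaturases, was 2.23-fold higher. Among 15 genes of uptake and binding, 3 were higher and 3 lower. FABP5, the fatty acid binding protein of the epidermis, was 5.56-fold higher (10.3 and 10.4 in high glucose, against 7.85 and 7.99 in normal glucose, adjusted p = 2.23e-05 from limma). Its brightest probe set ends in _x_at, a class that can bind transcripts of other genes. Among the genes named from these lists, those of INSIG2 and MGLL do too. SLC27A3, of the fatty acid transport protein family, was 1.87-fold higher. SLC27A2 of the same family was lower by a factor of at least 1.66, given as a bound because both high glucose arrays were under the floor.

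Glycerolipid synthesis held the largest differences of these lists, with 5 of 18 genes higher and 5 lower, where 15.5% and 22.2% of all genes were. LPCAT2, which reacylates lysophosphatidylcholine and makes platelet-activating factor, had 8.82 and 8.97 in high glucose, against 5.81 and 5.56 in normal glucose, a 9.26-fold rise (adjusted p = 1.97e-05 from limma). GPAT3, a glycerol-3-phosphate acyltransferase of the endoplasmic reticulum, had 2.46 and 2.34 in high glucose, under the floor, against 5.48 and 5.57 in normal glucose, lower by a factor of at least 4.71 (adjusted p = 1.06e-05). GPD1L, related to the enzyme that makes glycerol 3-phosphate, was lower by a factor of 2.55, a call that ended without high glucose replicate 1 (adjusted p = 0.0549) or 2 (0.0882). In the list for droplet coat and lipolysis, 2 of 18 were higher and 3 lower. LIPA, the acid lipase of lysosomes, was 2.84-fold higher, while MGLL, the monoglyceride lipase, and ABHD5, the activator of triglyceride lipase, were lower by factors of 1.70 and 1.67. The call of ABHD5 ended without high glucose replicate 2 (adjusted p = 0.0529).

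**Figure D4:**
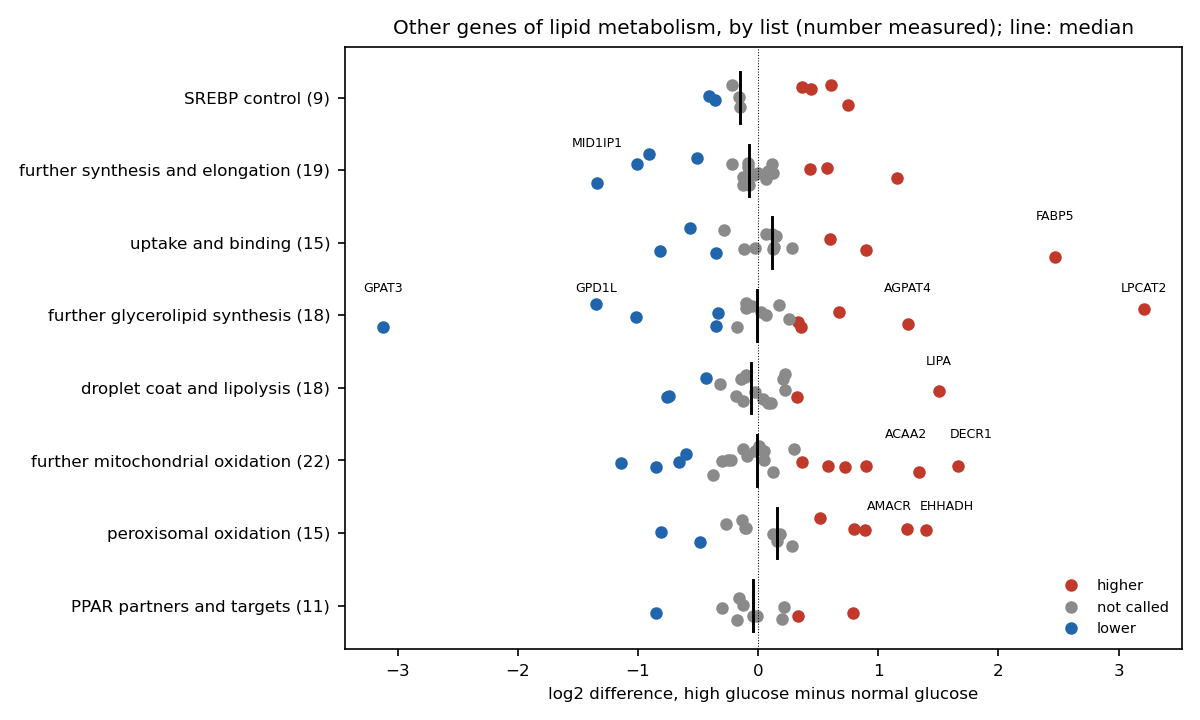
Log2 difference, high glucose minus normal glucose, of each measured gene in 8 further lists of lipid metabolism (vertical position within a list is arbitrary), with the number measured in brackets and a line at the median. Red and blue points were called higher and lower. LPCAT2 at 3.21 marks the upper end. GPAT3 marks the lower end at its measured values, which were under the floor on both high glucose arrays, so that its fall is known only as at least 4.71-fold.

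Of 22 other genes of mitochondrial oxidation, 6 were higher and 4 lower, where 15.5% and 22.2% of all genes were. DECR1, the dienoyl-CoA reductase needed for polyunsaturated chains, was 3.17-fold higher (8.74 and 8.82 in high glucose, against 6.99 and 7.23 in normal glucose, adjusted p = 0.000151 from limma). ACAA2, the thiolase of the last step, was 2.53-fold higher. ECI1, an enoyl-CoA isomerase, was lower by a factor of 2.21. Of 15 genes of peroxisomal oxidation, 5 were higher and 2 lower. EHHADH, the peroxisomal bifunctional enzyme, was 2.63-fold higher (adjusted p = 9.59e-05 from limma, with a log2 difference of 0.92 by the median over its probe sets), AMACR, which converts branched-chain acyl-CoA between its forms, 2.36-fold, and ACAA1, the peroxisomal thiolase, 1.85-fold. AMACR was not called when normal glucose replicate 1 (adjusted p = 0.0878) or 2 (0.0527) was left out, and the median over its probe sets was not called (0.13). Of 11 partners and targets of the PPARs, 2 were higher and 1 lower. RXRA and RXRB, which pair with each PPAR, were 1.73-fold and 1.26-fold higher, and the coactivator NCOA1 was lower by a factor of 1.80. The call of RXRB ended without normal glucose replicate 1 (0.0903) or 2 (0.0991) and without high glucose replicate 1 (0.0832) or 2 (0.106), and the median over its probe sets was not called (0.639). The PPAR targets in this list were not called, among them ANGPTL4 (log2 difference 0.22, adjusted p = 0.149 from limma). The list holds no member and no gene of the other lists, so it does not stand for all PPAR targets. FGF21 and UCP3 were under the floor on every array.

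Promoter windows were found for 36 of the 39 listed genes, 58 windows in all, since some genes have several starts. The RefSeq table used here holds none for DGAT1, DGAT2 and FASN. A GC box was present in 63.8% of the windows of members and in 45% of all windows, a CCAAT box in 37.9% and 34.6%. An E-box (CACGTG), a part of the carbohydrate response element, was present in 5.17% of the windows of members and 7.26% of all windows, those of ELOVL4, ELOVL5 and PLIN2. The core of the antioxidant response element (TGACNNNGC) was present in 10.3% and 13.3%. The sterol regulatory element core was found in 1 of 58 windows, a further start of ACSL1. The amino acid response element (TGATGCAAT) and the DR1 repeat were found in none. Only exact matches were counted, and of all windows 0.236% held the former and 0.0228% the latter. Both strands were searched. CCAAT boxes stood in the windows of 6 higher, 6 lower and 7 uncalled genes, and GC boxes in those of 8 higher, 8 lower and 14 uncalled genes. These counts were not tested.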

How the data were processed

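RNA from UM1 cells was read on 4 Affymetrix arrays. The scans were processed in GCOS and by RMA, in versions not given in the sources used here, and the authors deposited a log2 value for each of 49395 probe sets. Although the methods speak of the U133 Plus 2.0 array, the probe set names belong to PrimeView, and that annotation was used. It gave 44988 probe sets 1 gene and 1832 several, and did not list 2473. The 102 controls were dropped. Each of the 18132 genes is represented by its brightest probe set.

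High glucose was set against normal glucose by lmFit and eBayes of limma 3.58.1 (run under R 4.3.3), and p-values were adjusted by Benjamini-Hochberg across genes. The fit was tested on simulated data. Where both arrays of a group were at or below their 25th percentile, the fold is a bound against that percentile. The number of arrays limits the precision. Alternatives changed the probe set rule, the filter, the normalization, the test and the arrays.

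The members and lists were chosen with earlier results of these data known. All members are named, with array values for the called ones of largest difference (up to 4 in a role), for those whose probe sets point both ways, and for the rest. Each list is represented by its 3 called genes of largest difference. SREBF1, ANGPTL4, FGF21 and UCP3 were added after their values were seen.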

Additional observations from a re-analysis of the deposited data

How the results depend on the processing

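The 19 called members kept their direction under every alternative that gave them a value, 7 (ACLY, SCD5, ELOVL5, PLIN3, HADH, PPARA and PPARG) kept their call under all of those, and 12 kept it whichever array was left out. With 1 array left out, 5 to 6 members were higher (5 without high glucose replicate 1) and 7 to 9 lower (7 without normal glucose replicate 1 or 2). The methods' t-test, after Benjamini-Hochberg adjustment, called 6 higher and 3 lower members (ELOVL4, ELOVL7, FADS1, FADS3, ACSL1, ACSS2, LPIN1, CPT1A, CPT2 and HADHB losing their call), 1347 higher and 1667 lower of all genes, where limma called 2808 and 4023, and 14 higher and 10 lower genes of the pathway lists, where limma called 30 and 24. At the methods' thresholds, applied to the unadjusted p of limma, 5 members were higher and 9 lower, with 2433 of all genes lower and 15 lower in the lists. In the lists, 14 to 17 genes were lower with 1 array left out (15 without normal glucose replicate 1 or high glucose replicate 1, 17 without normal glucose replicate 2, 14 without high glucose replicate 2). These alternatives for the lists were chosen after seeing the data, as was the test of each probe set, by which 12 members had a higher and 12 a lower probe set. The replicate numbers of the labels did not pair the arrays, since deviations of same-numbered arrays from their group means correlated at -0.0046 over 18132 genes. With the replicate number as a block, 8 members were higher and 9 lower, ACSS2 and LPIN1 losing their call, and of all genes 2529 were higher and 3592 lower. With 2 arrays in a group, a member that was not called may still differ.

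The sign turned only for members that were not called. With the median over probe sets, the log2 difference was -0.0037 for ACACB, -0.34 for ELOVL6 (adjusted p = 0.0235, a call), -0.19 for ACSL5, -0.011 for ACSS1 and -0.073 for SLC25A20. With the probe set of largest spread it was -0.35 for ELOVL6, -0.32 for ACSL5, -0.11 for ACSS1, -0.24 for SLC25A20 and 0.26 for ACADVL. Without _x_at probe sets FADS2 was at -0.16, and PLIN3 had no value. With dim genes left out ELOVL4 and CPT1A had none. After a further quantile normalization FASN was at 0.043, ELOVL6 at -0.043, SLC25A20 at -0.067, ACADS at -0.032 and ACADVL at 0.024. Median centring moved the median of all genes by -0.0653 and gave -0.0351 for ACACA, -0.042 for ELOVL6, -0.056 for PLIN2, -0.046 for SLC25A20, -0.0097 for ACADS and -0.012 for PPARD. The floor gave -0.031 for PLIN2. With 1 array left out, the difference ranged from -0.068 to 0.13 for ACACA, -0.18 to 0.46 for ACACB, -0.093 to 0.14 for ELOVL6, -0.12 to 0.39 for ACSL5, -0.088 to 0.11 for PLIN2, -0.21 to 0.0038 for GPAM, -0.026 to 0.064 for SLC25A20 and -0.073 to 0.18 for ACADS. The cause of these changes was not tested.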
